A study of Mus musculus with 9 samples.

Results

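The 9 genes described here encode enzymes of amino acid synthesis and transamination outside the serine and glycine route. They are Asns (asparagine), Aldh18a1, Pycr1 and Oat (proline and ornithine), Glul (glutamine), Got1, Got2 and Gpt2 (transfer of amino groups to and from glutamate) and Bcat1 (branched-chain amino acids). They are the rows of the deposited table with those symbols, 9 of 53715 gene IDs. The rule used names and no values, but the choice was made with earlier results of these data known. RNA was sequenced from primary myoblasts, muscle precursor cells grown from muscle tissue, at passage 1. All libraries came from the mdx strain C57BL/10ScSn-Dmdmdx/J, whose dystrophin gene is mutated, so no group without that mutation stands beside them. Cells given 0.2 mM glycine gave 3 libraries and cells given 0.8 mM glycine gave 6, with no group given no glycine. Nothing in the labels ties a library to its own culture or animal, and the spread that each p-value is set against may therefore be technical.

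The values are TPM, a transcript abundance that divides reads by transcript length and brings every library to the same sum, so levels of different genes can be compared. TPM keeps no read numbers, and the depth behind each value is unknown. All libraries at 0.2 mM carry one library series in their names and all at 0.8 mM the other, so an effect of the series and one of glycine cannot be told apart. Means are given ± SD over libraries (n = 3 at 0.2 mM, n = 6 at 0.8 mM). "Rose" and "fell" mean the step from 0.2 to 0.8 mM at an adjusted p under 0.05 in limma, a linear model fitted across all 10049 genes with at least 1 TPM in at least 3 libraries. Log2 fold changes are of TPM + 1, which makes them smaller than the true change where levels are low.

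Asparagine synthetase moves the amide nitrogen of glutamine onto aspartate. Proline is made from glutamate in mitochondria by the ALDH18A1 protein, whose product cyclizes and is reduced by PYCR1, and ornithine enters the same route through OAT. The aminotransferases pass amino groups between glutamate and the keto acids of the tricarboxylic acid cycle and glycolysis, and GOT1 and GOT2 are also the cytosolic and mitochondrial arms of the malate-aspartate shuttle. In cells short of amino acids the kinase GCN2 raises translation of the transcription factor ATF4, which binds C/EBP-ATF response elements in genes such as Asns.

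The regions around the gene starts were searched for the core of the ATF4 element, spelled TGATGNAA, on both strands. RefSeq entries on GRCm38.p6, with 250 bases before and 50 bases after the start, were found for 9 of 9 genes, 10 regions in all since Bcat1 has more than 1. The letters occurred in 3 of them, those of Asns, Pycr1 and Got1, and in 3.97% of 32851 mouse promoter regions of that length. The form TGATGCAA, a subset of the first, occurred in 0.895%. The 30 bases around each match, in the sense of the gene and with the match in capitals, are shown because 1 of these genes fell, 1 rose and 1 did not pass in the results that follow.
Asns: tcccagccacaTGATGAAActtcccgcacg
Pycr1: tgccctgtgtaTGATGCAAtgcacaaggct
Got1: cattgcattggTTGCATCAtacaagcctcc
The Asns match lay on the gene's own strand at chr6:7693225-7693232, 16 to 23 bases before the RefSeq start and inside an exon of the GENCODE gene. That of Pycr1 was on the gene's strand at chr11:120643844-120643851, 96 to 103 bases before the start. In Got1 the match was on the opposite strand, at chr19:43524700-43524707, 95 to 102 bases before the start. The 229 bases before Pycr1 that lie outside the gene in both annotations, at chr11:120643770-120643998 on the minus strand, are given as the case of a match in a gene that rose.
Pycr1 upstream: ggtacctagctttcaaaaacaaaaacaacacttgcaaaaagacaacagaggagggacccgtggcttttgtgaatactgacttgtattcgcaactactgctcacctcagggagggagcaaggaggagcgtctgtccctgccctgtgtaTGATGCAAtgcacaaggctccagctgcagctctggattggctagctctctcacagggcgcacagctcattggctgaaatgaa
A match is a string of letters in the reference genome and not a measured binding site.

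Of the 9 enzymes, 3 fell (Asns, Gpt2 and Aldh18a1), 2 rose (Oat and Pycr1) and 4 did not pass (Glul, Got1, Got2 and Bcat1). Over all genes tested 16.7% rose and 9.81% fell, 26.6% in either direction. The median log2 fold change was 0.017 over the 9 enzymes and 0.062 over all genes tested. Each of the 9 had at least 1 TPM in every library. The libraries of the groups did not overlap for the 5 that passed and overlapped for the other 4, where 28.2% of all genes tested did not overlap.

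**Figure D1:**
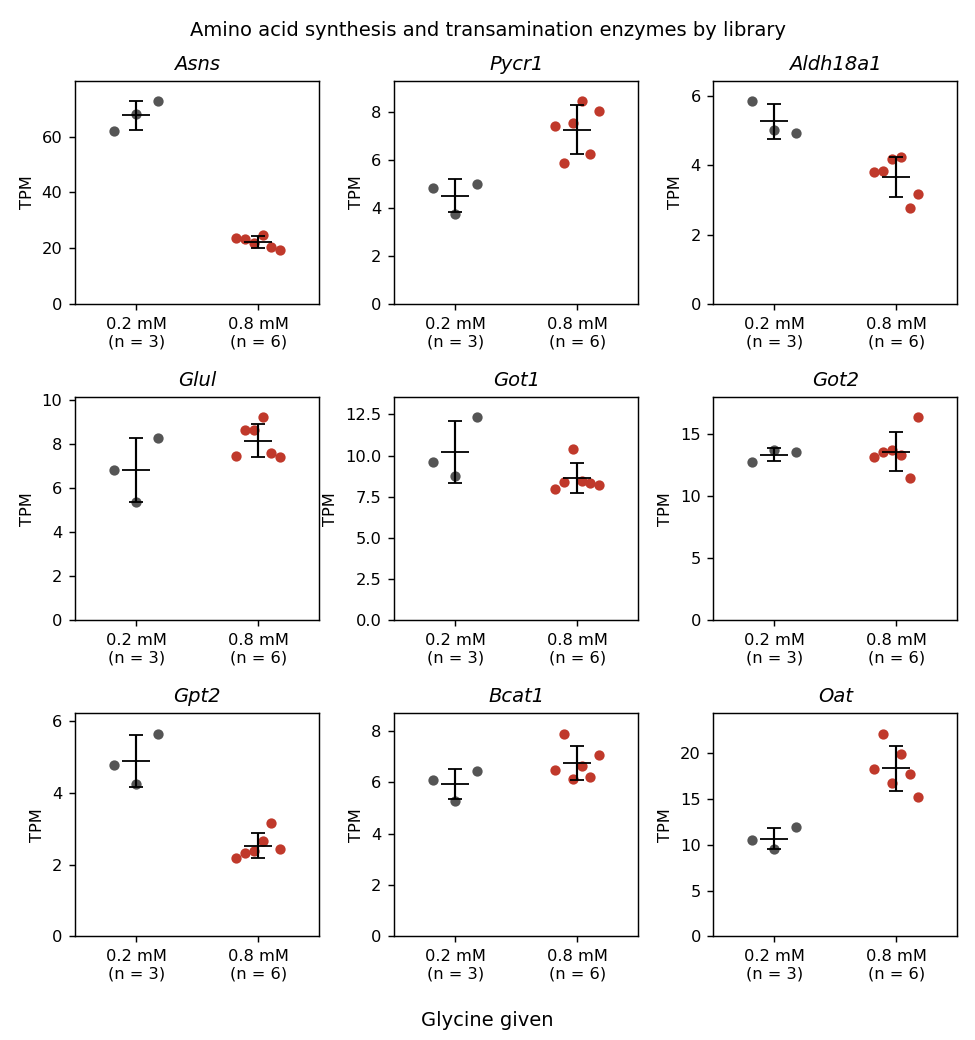
TPM of each enzyme by library, 1 panel per enzyme with its axis from 0, where grey points are the 3 libraries at 0.2 mM, red points the 6 at 0.8 mM glycine, and black marks the mean and SD. The groups are apart for Asns, Pycr1, Aldh18a1, Gpt2 and Oat, and Asns has the widest gap, from at least 62.0 TPM at 0.2 mM to at most 24.7 TPM at 0.8 mM.

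The cultures held RNA of muscle cells and of other cell types. As the share to set beside each count of markers, 16.7% of all genes tested rose and 9.81% fell. The 8 myoblast markers, with Myod1, Myog and Des, summed to between 409.5 and 479 TPM at 0.2 mM. At 0.8 mM they summed to between 906 and 1125 TPM, and 7 of the 8 rose. The 14 macrophage and leukocyte markers summed to 1891 to 2066 TPM and 2078 to 2536 TPM. Of 13 tested, 4 rose (Itgam, Cd14, Lyz2 and Tyrobp) and 1 fell (Cd68). Much of the higher sum was Lyz2, at 588 ± 30.6 and 1013 ± 153 TPM. Fcer1g did not pass, at 949 ± 39.2 and 888 ± 36.3 TPM, and Cd68 fell from 182 ± 13.6 to 57.6 ± 2.38 TPM. Itgam passed the filter through the 0.8 mM libraries alone, where it was high. The 9 fibroblast markers summed to 2310 to 2690 TPM and 2716 to 3287 TPM, and 6 of them rose. Much of the higher sum was Ly6a, which went from 313 ± 19.6 to 901 ± 37.1 TPM. Dcn, the most abundant of the 9, did not pass, at 1878 ± 184 and 1689 ± 209 TPM. The 6 endothelial markers summed to 11.2 to 12.1 TPM and 20.2 to 29.7 TPM, and 4 were tested and rose, of which Pecam1 and Cdh5 passed the filter through the 0.8 mM libraries alone. The 6 adipocyte markers summed to 12.9 to 14.8 TPM and 22.6 to 34.8 TPM, where Fabp4 made up nearly all, Lep was at 0 in every library and Adipoq at 0.0407 ± 0.0705 and 0 TPM. In such bulk RNA, fewer cells of a type and less RNA per cell cannot be told apart. The part of these cell types in the changes of the 9 enzymes was not tested.

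Asns, on chromosome 6 (GRCm38, 7675169 to 7693254, minus strand), was read at 62.0, 68.1 and 72.6 TPM in the 3 libraries at 0.2 mM. At 0.8 mM the lowest library had 19.3, the median was 22.6 and the highest 24.7 TPM. Every library at 0.8 mM was thus below every library at 0.2 mM, and the means differed 3.04-fold. The limma estimate of the change was -1.56 ± 0.09 on the log2 scale (SE, adjusted p = 5.54e-07), which ranked 48 among the falls of all genes tested. Asns was the most abundant of the 9 enzymes at both glycine levels, yet at 0.8 mM its libraries overlapped those of Oat. Its change stood between -1.66 and -1.51 in the 23 alternatives run.

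The tested genes nearest to Asns in profile were Phgdh, the first enzyme of serine synthesis, Bcl2a1b, a BCL2-family gene, and Slfn2, a Schlafen gene. Likeness is the root mean square distance between gene-centred log2(TPM + 1) values over the 9 libraries, a description without a test, and the distances were 0.0794, 0.0979 and 0.1. Phgdh averaged 82.5 TPM at 0.2 mM and 29.4 TPM at 0.8 mM. Atf4 itself fell, from 169 ± 19.2 to 69.4 ± 5.61 TPM, which is -1.27 ± 0.09 on the log2 scale (SE, limma adjusted p = 1.99e-06). The 11 listed genes of the amino acid response had a median log2 fold change of -1.29, beside 0.062 for all genes tested. Of the 11, 9 fell, 0 rose and 2 did not pass, where 9.81% of all genes tested fell and 16.7% rose. The others that fell were Atf3, Atf5, Ddit3, Trib3, Cebpg, Chac1, Sesn2 and Nupr1. On the log2 scale Chac1 fell by 1.19, the least of the 9, and Trib3 fell by 2.85, the most. The 2 that did not pass were Eif2ak4, the gene of GCN2, at 1.19 ± 0.345 and 0.942 ± 0.191 TPM, and Cebpb, at 16.6 ± 4.33 and 27.0 ± 25.9 TPM.

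Of the asparagine and aspartate list, 9 of 15 genes were tested, 2 fell (Asns and Adss), 1 rose (Ass1) and 6 did not pass. The share that passed over all genes tested was 26.6%. Ass1, argininosuccinate synthase, which joins aspartate to citrulline, rose from 82.1 ± 5.01 to 125 ± 15.3 TPM, or 0.59 on the log2 scale. Adss, which joins aspartate to inosine monophosphate in purine synthesis, fell from 4.91 ± 0.896 to 3.08 ± 0.441 TPM and did not pass without 0.2 mM replicate 1 (adjusted p = 0.0616) or replicate 2 (adjusted p = 0.0899). Of the genes that act on asparagine itself, the asparaginase gene Asrgl1 stayed under the filter at 0.932 ± 0.0752 and 0.899 ± 0.177 TPM. Aspg, another asparaginase gene, was at 0.0188 ± 0.0326 and 0.0423 ± 0.0657 TPM.

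The proline genes did not move one way. Aldh18a1, at the entry from glutamate, fell, while Pycr1, at the last step, and Oat, at the entry from ornithine, rose. Aldh18a1 (chromosome 19, 40550257 to 40588463) was at 5.84, 5.03 and 4.92 TPM at 0.2 mM. At 0.8 mM it ran from 2.77 over a median of 3.82 to 4.24 TPM. The groups were apart by less than 1 TPM, and the change was -0.43 ± 0.14 on the log2 scale (SE, limma adjusted p = 0.0373). Leaving out any of 7 libraries ended this call, up to an adjusted p of 0.144 without 0.2 mM replicate 1. They were 0.2 mM replicates 1 to 3 and 0.8 mM replicates 1, 2, 5 and 6, and it was also lost with no filter on low values (0.0675).

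Pycr1 (chromosome 11, 120635712 to 120643769) was at 4.84, 3.74 and 5.02 TPM at 0.2 mM. At 0.8 mM it ran from 5.88 over a median of 7.51 to 8.46 TPM. All 6 libraries lay above the 3, and the change was 0.58 ± 0.14 on the log2 scale (SE, limma adjusted p = 0.00886). Without 0.2 mM replicate 2, the lowest library, it was 0.47 and did not pass (adjusted p = 0.0505). Nearest to it in profile were Arl6ip4, Fam221b and Sdhd, a subunit of succinate dehydrogenase, at distances of 0.0696, 0.0971 and 0.0975.

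Oat (chromosome 7, 132557478 to 132576398) was at 10.5, 9.56 and 11.9 TPM at 0.2 mM. At 0.8 mM its lowest library had 15.2, the median was 17.99 and the highest 22.1 TPM. No library at 0.8 mM came near the range at 0.2 mM, and the means differed 1.72-fold. On the log2 scale the change was 0.72 ± 0.12 (SE, limma adjusted p = 0.00109), and it passed in all 23 alternatives. Oat went from below Got2 to second place in level behind Asns. Nearest to it in profile were Mif4gd, Ugdh and Lyz2, the last a lysozyme gene of macrophages, at distances of 0.0969, 0.0976 and 0.103.

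Pycr3, the cytosolic paralog of Pycr1, listed in the table under its older symbol Pycrl, did not pass, at 5.47 ± 0.307 and 4.48 ± 0.895 TPM (log2 fold change -0.25, limma adjusted p = 0.235). Pycr3 had a higher mean than Pycr1 at 0.2 mM and a lower one at 0.8 mM. Prodh, which starts proline breakdown, stayed under the filter at 0.632 ± 0.0831 and 0.264 ± 0.236 TPM, as did Aldh4a1, the next enzyme of that route, at 0.468 ± 0.0852 and 0.521 ± 0.174 TPM.

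In the proline and ornithine list 9 of 12 genes were tested, and their median log2 fold change was 0.17 beside 0.062 for all. Of the 9, 4 rose, 1 fell and 4 did not pass, where 16.7% of all genes tested rose and 9.81% fell. Beyond Pycr1 and Oat, those that rose were P4ha1 and P4ha3, catalytic subunits of the prolyl hydroxylase that modifies proline in collagen. P4ha1 rose from 22.1 ± 1.76 to 32.4 ± 1.23 TPM and P4ha3 from 1.26 ± 0.313 to 2.64 ± 0.542 TPM. The third subunit gene, P4ha2, did not pass and was the most abundant, at 121 ± 15.2 and 135 ± 9.74 TPM.

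Ratios between enzymes within a library do not depend on how that library was scaled, apart from the pseudocount of 1. For 6 pairs the log2 ratio was set between the glycine levels with a two-sided exact permutation test, adjusted over the 6, and 4 of the pairs are given here. The log2 ratio of Pycr1 to Aldh18a1 was -0.18 ± 0.19 at 0.2 mM and 0.83 ± 0.21 at 0.8 mM, a difference of 1.01. Pycr1 was thus above Aldh18a1 in 1 of 3 libraries at 0.2 mM and in 6 of 6 at 0.8 mM. The log2 ratio of Aldh18a1 to Oat was -0.89 ± 0.20 and -2.05 ± 0.20, a difference of -1.16. In both pairs one gene was higher and the other lower in every library at 0.8 mM, so these ratios had to separate the groups. Their exact permutation p of 0.0238 (adjusted p = 0.0476), the smallest that 3 against 6 libraries allow, therefore adds nothing to the tests of the single genes.

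**Figure D2:**
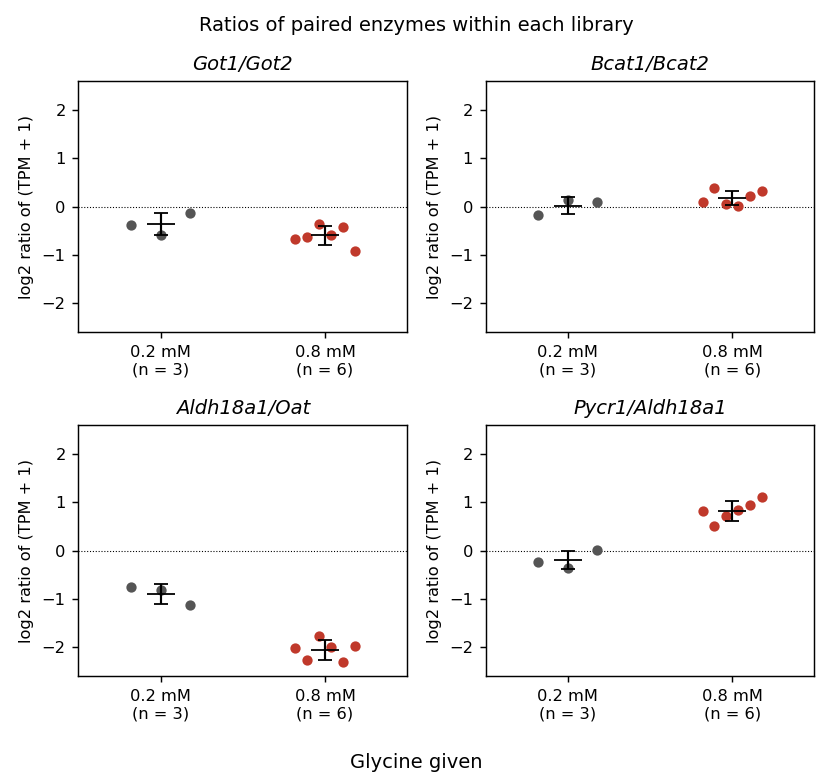
Log2 ratio of (TPM + 1) for 4 pairs of enzymes by library, where grey points are the 3 libraries at 0.2 mM, red points the 6 at 0.8 mM glycine, black marks the mean and SD, and the dotted line is equal levels. The groups are apart for Aldh18a1/Oat and Pycr1/Aldh18a1, and overlap for Got1/Got2 and Bcat1/Bcat2.

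Of the alanine aminotransferases, Gpt2 fell and Gpt rose. Gpt2, the mitochondrial alanine aminotransferase (chromosome 8, 85492576 to 85527560), was at 4.76, 4.24 and 5.65 TPM at 0.2 mM. At 0.8 mM its lowest library had 2.18, the median was 2.40 and the highest 3.17 TPM. All 6 libraries lay under the 3, a change of -0.74 ± 0.13 on the log2 scale (SE, limma adjusted p = 0.00169), and the call held in the 22 alternatives in which it was tested. Gpt, the cytosolic alanine aminotransferase, rose from a lower level, 0.372 ± 0.181 to 1.49 ± 0.571 TPM (log2 fold change 0.84, limma adjusted p = 0.00964). Its highest library at 0.2 mM had 0.556 TPM and its lowest at 0.8 mM 0.956 TPM, and it did not pass without 0.2 mM replicate 2 (adjusted p = 0.0513). Gpt passed the filter of 1 TPM through the 0.8 mM libraries alone, where it was high. Among the nearest to Gpt2 in profile were Adprh and Iars, the isoleucyl-tRNA synthetase, at distances of 0.0956 and 0.103.

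The aspartate aminotransferases did not pass. Got1, the cytosolic form (chromosome 19, 43499752 to 43524605), was at 9.59, 8.75 and 12.3 TPM at 0.2 mM and between 7.94 and 10.4 TPM at 0.8 mM, with a median of 8.35. Replicate 3 at 0.8 mM, the highest, stood apart from the other 5, which reached 8.47 TPM. The groups overlapped, and the log2 fold change was -0.21 with a 95% interval from -0.49 to 0.057 (limma adjusted p = 0.235). Got2, the mitochondrial form (chromosome 8, 95864134 to 95888547), was at 12.7, 13.7 and 13.5 TPM at 0.2 mM and between 11.4 and 16.3 TPM at 0.8 mM, with a median of 13.4. Its log2 fold change was 0.017 with a 95% interval from -0.21 to 0.25 (limma adjusted p = 0.927), and its sign was negative with median-ratio scaling, quantile normalization or removal of ribosomal RNA genes. The log2 ratio of Got1 to Got2 was -0.36 ± 0.23 and -0.60 ± 0.20, a difference of -0.23 (exact permutation p = 0.167, adjusted p = 0.250).

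In the list of aminotransferases 9 of 18 genes were tested, with a median log2 fold change of -0.0030. Of the 9, 2 rose (Gpt and Oat), 2 fell (Gpt2 and Psat1) and 5 did not pass, where 26.6% of all genes tested passed. Psat1, which uses glutamate to make phosphoserine, fell from 36.6 ± 3.21 to 22.7 ± 1.96 TPM. It was the most abundant aminotransferase of the list at both levels. Tat, Agxt, Agxt2, Got1l1 and Etnppl were listed at 0 in every library.

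The malate-aspartate shuttle carries reducing equivalents into mitochondria. In the list drawn up for it, 4 of the 5 tested genes other than Got1 and Got2 rose. Of the whole list 7 of 8 genes were tested, 4 rose, 0 fell and 3 did not pass (Got1, Got2 and the glutamate carrier Slc25a22), with a median log2 fold change of 0.37. Mdh1, the cytosolic malate dehydrogenase, rose from 13.96 ± 0.925 to 27.2 ± 1.91 TPM (log2 fold change 0.92, limma adjusted p = 1.54e-05). Mdh2, its mitochondrial counterpart, rose from 96.8 ± 8.33 to 126 ± 6.65 TPM. Slc25a11, the oxoglutarate carrier, and Slc25a12, an aspartate-glutamate carrier, rose by 0.37 and 0.76. The Slc25a11 call ended without 0.2 mM replicate 2 or 3 or 0.8 mM replicate 1, 2, 3 or 6 (adjusted p up to 0.182), and that of Slc25a12 without 0.2 mM replicate 2 or 3 or 0.8 mM replicate 1, 4 or 6 (up to 0.129). Slc25a11 also did not pass after median-ratio scaling (0.0832), quantile normalization (0.0767) or removal of ribosomal RNA genes (0.0664), and the libraries of Slc25a12 overlapped between the groups. Over all genes tested 16.7% rose.

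Glul, glutamine synthetase (chromosome 1, 153899944 to 153909723), did not pass. It was at 6.85, 5.38 and 8.29 TPM at 0.2 mM and between 7.45 and 9.23 TPM at 0.8 mM, with a median of 8.12. The highest library at 0.2 mM lay within the 0.8 mM range, and the log2 fold change of 0.24 had a 95% interval from -0.050 to 0.53 (limma adjusted p = 0.215).

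In the glutamate and glutamine list 11 of 17 genes were tested, with a median log2 fold change of 0.28. Of the 11, 1 rose, 1 fell and 9 did not pass, where 26.6% of all genes tested passed. Gfpt2, which uses glutamine to make hexosamine, rose from 1.37 ± 0.288 to 4.00 ± 0.647 TPM (log2 fold change 1.07, limma adjusted p = 0.000279). Its paralog Gfpt1 did not pass, with 6.08 ± 2.90 TPM at 0.2 mM against 8.79 ± 2.19 TPM (limma adjusted p = 0.206). Gclm, the modifier subunit of the enzyme that joins glutamate to cysteine for glutathione, fell by 0.76. Glud1, glutamate dehydrogenase, did not pass, with 9.40 ± 0.953 TPM at 0.2 mM against 9.92 ± 2.15 TPM.

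Bcat1, the cytosolic aminotransferase of leucine, isoleucine and valine (chromosome 6, 144993835 to 145076184), did not pass. It was at 6.10, 5.27 and 6.43 TPM at 0.2 mM and between 6.14 and 7.90 TPM at 0.8 mM, with a median of 6.56. The groups overlapped in a narrow band, and the log2 fold change of 0.16 had a 95% interval from -0.086 to 0.40 (limma adjusted p = 0.333). Bcat2, the mitochondrial form, was at nearly the same level, 5.88 ± 1.16 and 5.81 ± 0.494 TPM (limma adjusted p = 0.989). The log2 ratio of Bcat1 to Bcat2 was 0.022 ± 0.17 and 0.18 ± 0.15, a difference of 0.16 (exact permutation p = 0.238, adjusted p = 0.286).

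Of the wider list for branched-chain amino acid breakdown, 23 of 25 genes were tested, with a median log2 fold change of -0.041. Of the 23, 1 rose, 3 fell and 19 did not pass, where 26.6% of all genes tested passed. Echs1, an enoyl-CoA hydratase shared with fatty acid oxidation, fell from 18.1 ± 3.18 to 12.1 ± 0.873 TPM (log2 fold change -0.53, limma adjusted p = 0.00487). Bckdhb and Dld, both of the branched-chain keto acid dehydrogenase, fell by 0.46 and 0.29. The Bckdhb call ended without any one library other than 0.8 mM replicates 2 and 3 (adjusted p up to 0.140), and the Dld call without any one other than 0.8 mM replicate 6 (up to 0.139). Dld also serves pyruvate and oxoglutarate dehydrogenase. Acat1, an acetyl-CoA acetyltransferase that ends isoleucine breakdown, rose from 2.81 ± 0.848 to 4.98 ± 0.887 TPM, and did not pass without 0.2 mM replicate 2 (adjusted p = 0.0562) or replicate 3 (adjusted p = 0.0735).

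**Figure D3:**
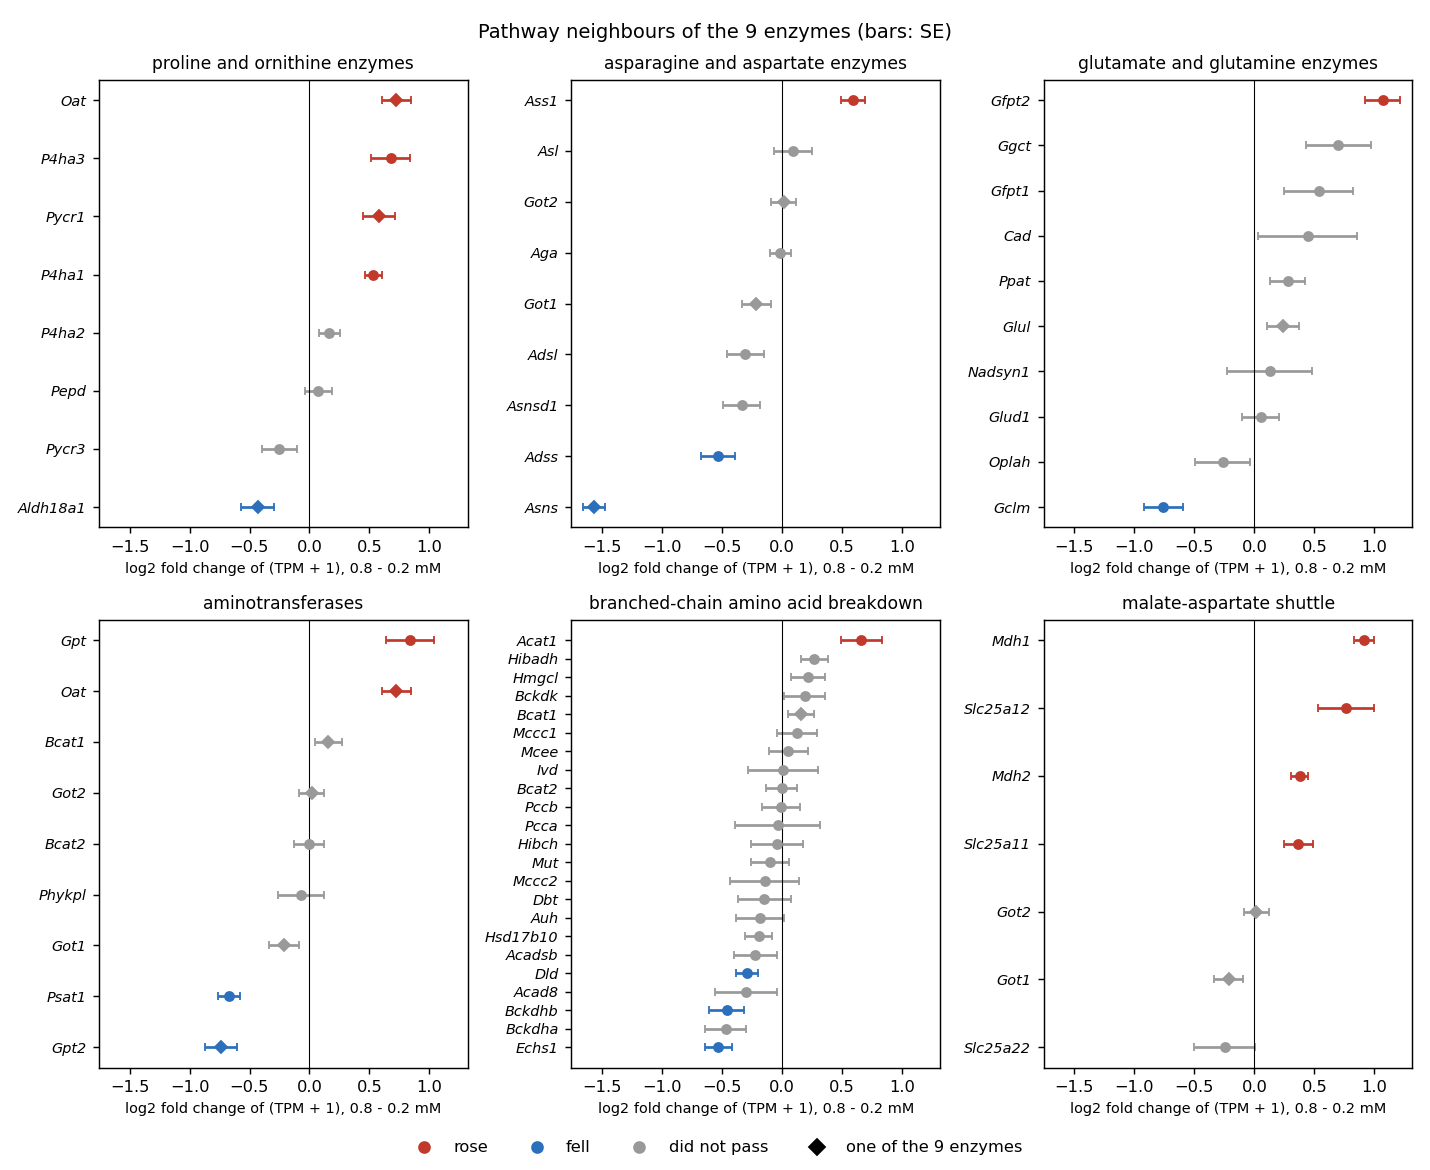
Log2 fold change of (TPM + 1) from 0.2 to 0.8 mM glycine on the x axis, with bars of 1 SE, for tested genes of each list (2 are not shown), red where the gene rose, blue where it fell and grey where it did not pass, with diamonds for the 9 enzymes. Genes stand on both sides of 0 in all 6 lists, from Asns at -1.56 to Gfpt2 at 1.07, and the shuttle list has 4 of its 7 genes in red.

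In level, the 9 enzymes spanned from 4.53 TPM (Pycr1) to 67.6 TPM (Asns) on average at 0.2 mM, and from 2.52 TPM (Gpt2) to 22.2 TPM (Asns) at 0.8 mM. At 0.2 mM the order was Asns, Got2, Oat, Got1, Glul, Bcat1, Aldh18a1, Gpt2 and Pycr1. Library values of neighbours did not overlap between Asns and Got2, Got2 and Oat, and Got1 and Glul, and overlapped for all other neighbours. At 0.8 mM the order was Asns, Oat, Got2, Got1, Glul, Pycr1, Bcat1, Aldh18a1 and Gpt2. There the gaps without overlap were between Got2 and Got1 and between Bcat1 and Aldh18a1. Pycr1 went from the last place to the sixth. The summed level of the 9 was 129 ± 9.93 TPM at 0.2 mM and 91.1 ± 5.15 TPM at 0.8 mM, of which Asns alone was 67.6 and 22.2 TPM.

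Among libraries of 1 group, the coefficient of variation of the 9 enzymes ran from 3.87% (Got2) to 21.2% (Glul) at 0.2 mM and from 9.09% (Asns) to 15.9% (Aldh18a1) at 0.8 mM. At 0.2 mM, replicate 3 had the highest value for 7 of the 9 and replicate 2 the lowest for 6 of the 9. Over all genes tested those shares were 36.7% and 38.0%. At 0.8 mM, replicate 4 was highest for 4 of the 9, where it was highest for 18.2% of all genes tested. Among the nearest profiles to the 4 enzymes that did not pass were Nemf, Hars and Foxo3 for Glul, Aebp2, Uqcc3 and Sox4 for Got1, Ccng2 and Tnip1 for Got2, and Dohh, Creb3l2 and Psmd3 for Bcat1, at distances between 0.0576 and 0.0807. For Aldh18a1 they were Rnf114, Ltbp2 and Ccndbp1, between 0.0806 and 0.0878.

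**Figure D4:**
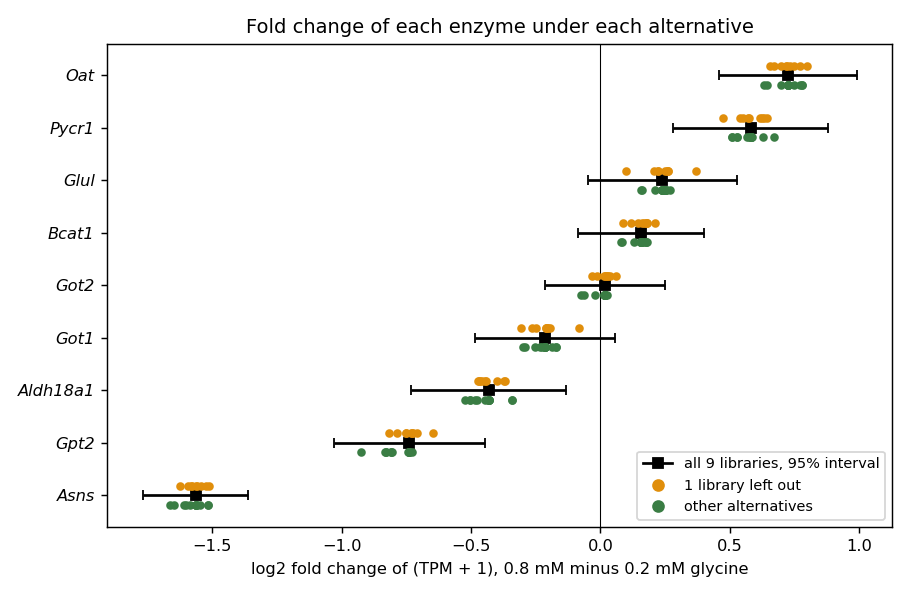
For each enzyme, black squares give the log2 fold change of (TPM + 1) with its 95% interval over all 9 libraries, orange points the value with 1 library left out and green points the other alternatives. Asns, Gpt2, Aldh18a1, Pycr1 and Oat keep their side of 0 in every alternative drawn, from -1.66 to -1.51 for Asns, and the points of Got2 fall on both sides.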

How the data were processed

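Per the submitters' processing notes, HISAT2 2.0.5, StringTie 1.3.3, DESeq2 and the mm10 build were used. Their settings were not given in the sources used here. TPM for 53715 gene IDs in 9 libraries, each column brought to nearly the same sum, are the values the authors deposited. RNA was taken with Trizol and libraries made with a TruSeq kit, per the labels' protocols. Neither the annotation release nor whether counting used strand is stated there.

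Positions came from GENCODE M21 on GRCm38, the assembly mm10 denotes, which matched 53620 IDs. Exons of Glul, Got2 and Bcat1 overlap those of other genes, which had at most 0.270 TPM in any library. The pseudogene Got2-ps1 was listed at 0 TPM, so reads it shared with Got2 could not be seen. Promoter sequences are RefSeq's.

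The gene test was limma 3.58.1 in R 4.3.3 (lmFit, eBayes with a trend, two-sided) on log2(TPM + 1), with Benjamini-Hochberg adjustment over the 10049 genes with at least 1 TPM in at least 3 libraries. No pair of libraries was identical. Data for this comparison were simulated in 10 runs of 10049 genes with 200 changed in TPM + 1. Calls were given to 37.8% of genes changed 1.5-fold, 73.4% changed 2-fold, 93.9% changed 4-fold and 0.0721% of unchanged genes. In the real data 2669 genes were called, so these shares need not hold there. The enzymes, the lists and the tests were chosen with earlier results of these data known. Named are the 9 enzymes, each list's genes that passed, the paralogs in the pairs, the 3 nearest profiles per enzyme (clone, Gm and Rik names left out), Atf4 and Psat1. Some genes the rule names, and 2 of the 6 pairs, are not reported here. Other genes were named after their values were seen. The alternatives were 2 pseudocounts, 2 filters, 4 scalings, 3 variance settings and a 1.5-fold threshold on TPM + 1. Each library was also left out, and libraries 1 to 3 of each group were fitted with and without a replicate block. Figures were drawn with matplotlib 3.10.9.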

Additional observations from a re-analysis of the deposited data

Results flagged for a closer look

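Got1 in 0.8 mM replicate 3 was at 10.4 TPM, while the other 5 libraries of that group lay between 7.94 and 8.47 TPM. The gap to the nearest library was 0.783 of the group's range, over Dixon's critical value for 6 samples. It was the 1 gap flagged in 18 groups checked this way, and chance gives such a gap in about 1 of 20 groups.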

How the results depend on the processing

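Asns, Gpt2 and Oat passed in every alternative in which they were tested, and Glul, Got1, Got2 and Bcat1 passed in none. Gpt2 and Aldh18a1 were not tested at a mean of at least 5 TPM. Requiring a 1.5-fold change of TPM + 1 as well left 1 of the 9 enzymes that rose. It left 2 proline genes that rose and 0 that fell, 1 asparagine and 0 branched-chain genes that fell, and 2 shuttle genes that rose. Pycr1 was dropped by it though its mean TPM differed 1.61-fold. At a mean of at least 5 TPM, 1 enzyme and 1 aminotransferase fell, 0 proline and 1 asparagine gene fell, and 0 glutamate, 1 aminotransferase and 0 branched-chain genes rose. With no filter 0 proline genes fell and 2 shuttle genes rose. Leaving out 1 library gave 1 to 2 enzymes that rose, 0 to 1 proline genes that fell, 1 to 3 asparagine genes that fell, 1 to 2 glutamate and 1 to 2 aminotransferase genes that rose, 0 to 1 branched-chain genes that rose and 1 to 2 that fell, and 2 to 4 shuttle genes that rose. Over all genes it left between 2032 and 2573 called, and 1636 passed with the 1.5-fold threshold, against 2669.

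Signs turned only where values were near 0. Got2 was -0.064 with median-ratio scaling, -0.075 with quantile normalization and -0.019 without ribosomal RNA genes, and -0.034 to 0.061 with a library left out. With a library left out Bcat2 ran from -0.13 to 0.11. The ratios of Aldh18a1 to Oat (-1.27 to -1.09) and Pycr1 to Aldh18a1 (0.93 to 1.12) kept their sign with a library left out. Their exact permutation adjusted p was then 0.0714 or more. Fewer libraries leave fewer splits, which alone kept these p-values over the threshold, so the loss of the call shows nothing about the ratios.

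Whether the same library numbers in both groups pair the libraries was not settled. Same-numbered deviations correlated at 0.0229, 0.03 and 0.0812, and those with different numbers between -0.104 and 0.0799. Libraries 1 to 3 of each group gave 2066 calls over all genes without a replicate block and 1782 with it. In both fits 1 of the 9 enzymes rose (Pycr1 ended at adjusted p = 0.0576 and 0.0568), 0 proline genes fell, 1 aminotransferase and 2 shuttle genes rose, and Bcat2 was at 0.022. With the block 1 asparagine and 0 branched-chain genes fell, and without it 1 branched-chain gene fell. The ratios with the block were -1.12 for Aldh18a1 to Oat and 0.87 for Pycr1 to Aldh18a1, and 3 pairs cannot reach the threshold in an exact test. TPM keeps no depth, so low values such as those of Gpt have an unknown counting error.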
